A study of Sus scrofa with 12 samples.

Results

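Cell cycle and DNA replication genes were followed through the ileal mucosa of 12 pigs. The list holds 50 genes, and 48 of them had a probe set on the array, out of 13538 genes named there. For each gene the probe set with the highest mean over the 12 arrays was used. The 48 genes comprise 18 of DNA replication, 23 of mitosis and 7 regulators of the cycle, and all 48 passed the filter on dim probe sets. AURKA was found through its older symbol STK6, and no value is given for CCNA2 or KIF20A.

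The study set 6 pigs of high feed efficiency against 6 of low feed efficiency. All were 140 days old, and each group was made up of 3 males and 3 females. No breed, diet or genetic line was given in the labels, so the groups are known by feed efficiency and sex alone. RNA of each pig was hybridised to 1 Affymetrix array made for the pig, and all values are log2 signals as the authors deposited them. Within each group the pigs are numbered in accession order, with males as 1 to 3 and females as 4 to 6. Each array came from a different animal, so the spread between arrays holds the spread between pigs.

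Cells that divide copy their DNA in S phase and separate it in mitosis. Origins are licensed by loading the MCM helicase, the fork is built around CDC45, GINS, primase, polymerase alpha and the clamp PCNA, and ribonucleotide reductase and thymidylate synthase supply nucleotides. E2F factors drive the S phase genes and FOXM1 the mitotic ones, while cyclins with CDK1 start mitosis. In the ileum, dividing cells lie in the epithelial crypts and in the germinal centres of Peyer's patches, where B cells multiply. In whole mucosa, fewer dividing cells and less RNA per cell cannot be told apart.

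The tissue label was set against its markers before the results. FABP6, the ileal bile acid binding protein of enterocytes, ranged from 11.70 to 13.09 in high pigs and from 12.41 to 12.99 in low pigs. MS4A1, which encodes CD20 on B cells, ranged from 8.43 to 10.9 in high pigs and from 5.56 to 10.82 in low pigs. Smooth muscle genes were mixed in signal. ACTG2 ranged from 11.20 to 12.27 in high pigs and from 11.21 to 12.20 in low pigs. MYH11 ranged from 3.61 to 4.76 in high pigs and from 3.40 to 4.09 in low pigs. How much muscle each sample held was not tested. Array 1 of the high group stood apart from the rest: its median correlation with the other arrays was 0.899, against 0.930 to 0.962 for the other 11. The next lowest were high 3 (0.930) and low 4 (0.938). The lowest limma array weights were also those of high 1 (0.401), high 3 (0.522) and low 4 (0.677). High 1 lay at -108 on the first principal component of all probe sets (30.5% of the variance), with the next pig, low 2, at -44.8. The labels give pig identifiers in a pair of ranges. Identifiers 301 to 310 belong to 8 pigs (6 males and the females high 4 and low 4), and identifiers 317 to 324 belong to 4 females.

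The cell cycle genes varied widely between pigs and did so together, and that variation was not aligned with feed efficiency. The median standard deviation over the 12 pigs was 0.53 for the 48 members and 0.30 for all 12161 genes, on the log2 scale. The mean centred log2 value of the 48 members, called the cell cycle score below, was highest in high 2 (0.63) and lowest in low 4 (-0.76), high 3 (-0.66) and high 4 (-0.50). High 5 and low 5 lay level at 0.38, low 2 at 0.33, low 1 at 0.30 and high 1 at 0.18. High 6 (-0.02), low 6 (-0.07) and low 3 (-0.19) lay between these and the 3 lowest pigs. Of the 48 members, 45 had their lowest value in high 3, high 4 or low 4, and 26 had their highest in high 2. High 3 and low 4 also had the lowest array correlations after high 1. The part of array quality in their low scores was not tested. Both groups thus held pigs near the top and near the bottom of the range. The score averaged -0.001 ± 0.50 in high pigs and 0.001 ± 0.44 in low pigs (SD, n = 6 each).

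**Figure D1:**
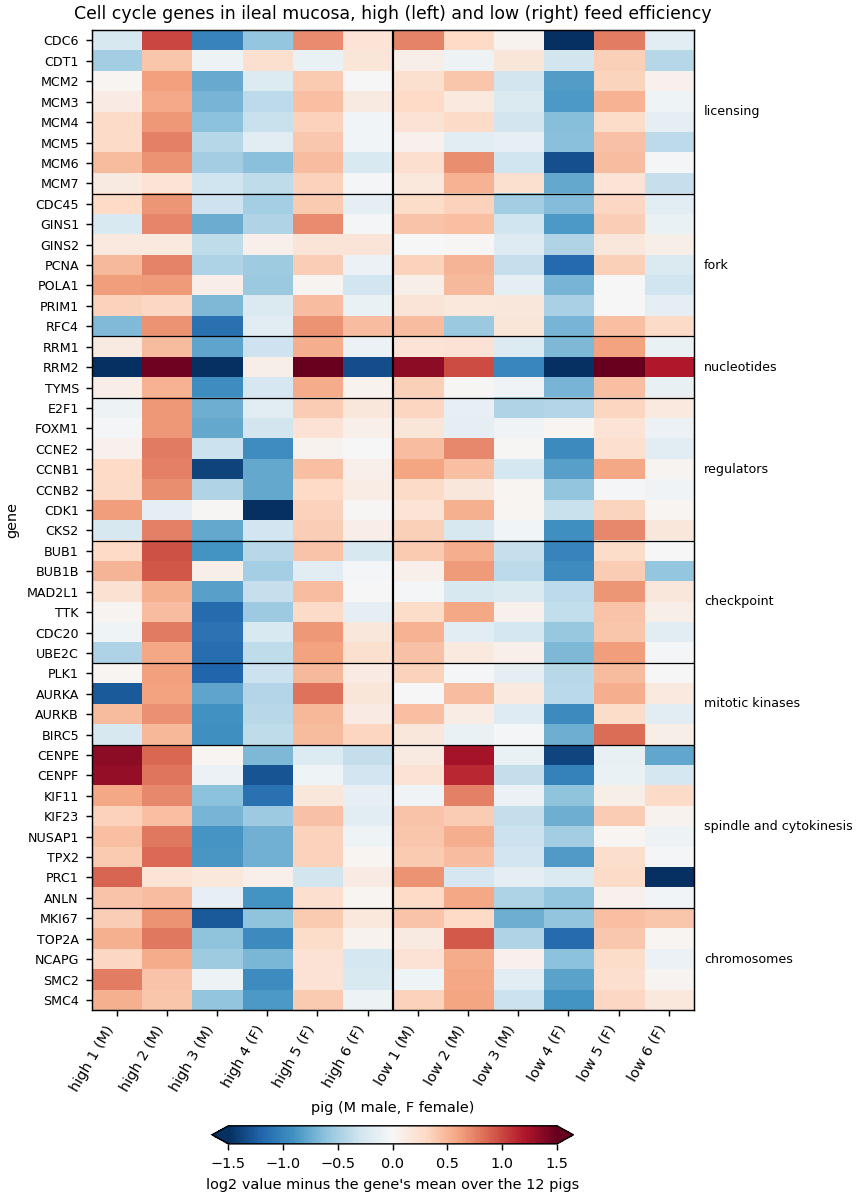
Each row is 1 gene and each column 1 pig, with high feed efficiency pigs left of the black line and low feed efficiency pigs right of it. Colour gives the log2 value minus the gene's mean over the 12 pigs, and values beyond 1.5 in either direction share the end colours. High 3, high 4 and low 4 are blue over most rows, and high 2 is red over most rows.

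In the comparison of high with low feed efficiency, no member passed the limma test at an adjusted p under 0.05, and across all 33405 probe sets 0% were called. No member had an unadjusted p under 0.05 either, against 3.17% of all probe sets. Adjusted p values of the members ran from 0.999 to 1.0. In sign, 27 members were higher and 21 lower in high pigs, where 47.5% of all genes had a difference above 0. The median difference, high minus low, was 0.02 for the members and -0.01 for all genes. Values of the groups overlapped for each of the 48 members, and across all probe sets 0.0928% had groups that did not overlap. The 95% interval of the difference lay within 1 log2 unit of 0 for 44 members and within 0.5 for 5. A p that misses the threshold does not show that the groups are alike.

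Of the 18 replication genes, 13 were higher and 5 lower in high pigs, with a median difference of 0.04. Under quantile normalization 16 were higher and 2 lower, with array weights 17 and 1, and under median centring 12 and 6. Their signs are not independent, because these genes moved together over the pigs. Among the 8 licensing genes, 7 were higher and 1 lower in high pigs, with a median difference of 0.06. MCM5, a helicase subunit, ran from 6.84 through a median of 7.40 to 8.03 in high pigs, and from 6.64 through 7.13 to 7.71 in low pigs. Its difference was 0.27 ± 0.22 (SE), the smallest p of the licensing genes, with a limma adjusted p of 0.999. Other MCM5 probe sets gave -0.11 ± 0.19 and 0.15 ± 0.26. MCM4, another subunit, had a lowest, median and highest value of 7.90, 8.64 and 9.17 in high pigs, and 7.88, 8.55 and 8.81 in low pigs, a difference of 0.10 ± 0.23. The bottom of both groups was nearly level for MCM4, and the top pig was a high one. MCM2, often used as a marker of licensed cells, ran from 5.28 through 6.05 to 6.65 in high pigs and from 5.20 through 6.19 to 6.45 in low pigs, a difference of 0.02 ± 0.26. MCM3 (0.06 ± 0.27), MCM6 (0.08 ± 0.33), MCM7 (-0.01 ± 0.20), the loading factors CDC6 (0.03 ± 0.45) and CDT1 (0.05 ± 0.18) lay within 1 SE of 0.

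Fork genes gave 5 higher and 2 lower members, with a median of 0.12. POLA1, the catalytic subunit of DNA polymerase alpha, ran from 6.25 through 6.87 to 7.44 in high pigs and from 6.11 through 6.74 to 7.29 in low pigs, a difference of 0.19 ± 0.17. The second POLA1 probe set had the other sign, at -0.13 ± 0.20. GINS2, part of the replicative helicase, ran from 5.20 through 5.73 to 5.78 in high pigs and from 5.14 through 5.60 to 5.76 in low pigs, a difference of 0.12 ± 0.14. High 3 lay apart below the other high pigs for GINS2, and the remaining values overlapped. PCNA, the sliding clamp, ran from 9.48 through 10.16 to 10.76 in high pigs and from 8.85 through 10.08 to 10.52 in low pigs, a difference of 0.17 ± 0.29. Low 4 held the lowest PCNA value, and without that pig the difference was -0.02. The primase subunit PRIM1 (0.04 ± 0.20), CDC45 (0.13 ± 0.24), GINS1 (-0.003 ± 0.31) and the clamp loader subunit RFC4 (-0.04 ± 0.33) lay within 1 SE of 0.

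Among the nucleotide genes, RRM2 had the widest spread over pigs of all members. RRM2, the S phase subunit of ribonucleotide reductase, had 3.79, 7.32, 3.15, 5.95, 8.05 and 4.54 in high pigs 1 to 6, and 7.21, 6.85, 4.89, 3.41, 8.17 and 7.07 in low pigs 1 to 6. Its difference was -0.80 ± 0.96, with a limma adjusted p of 0.999. That difference was -1.51 without low 4 and -0.36 without high 3. Low values of RRM2 occurred in both groups, in high 1, high 3, high 6, low 3 and low 4. Its SD over pigs was 1.83 for that probe set, against 0.46 and 0.23 for the gene's other 2 probe sets, which gave differences of -0.25 ± 0.25 and -0.14 ± 0.15. RRM1, the large subunit, ran from 7.44 through 8.25 to 8.78 in high pigs and from 7.56 through 8.29 to 8.83 in low pigs, a difference of -0.02 ± 0.26. TYMS, thymidylate synthase, differed by 0.01 ± 0.27.

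Of the 7 regulators, 2 were higher and 5 lower in high pigs with a median of -0.04, and with array weights 4 were higher and 3 lower with a median of 0.03. CDK1, the kinase that starts mitosis, ran from 5.23 through 6.88 to 7.49 in high pigs and from 6.53 through 6.98 to 7.40 in low pigs, a difference of -0.26 ± 0.30. High 4 lay far below the other high pigs for CDK1, and without it the difference was 0.03. CCNB1, its cyclin partner, ran from 6.14 through 7.72 to 8.28 in high pigs and from 6.71 through 7.77 to 8.12 in low pigs, a difference of -0.19 ± 0.37. The transcription factor E2F1 ran from 5.48 through 6.26 to 6.87 in high pigs and from 5.76 through 6.23 to 6.54 in low pigs, a difference of 0.07 ± 0.23. FOXM1, the mitotic transcription factor, ran from 5.10 through 5.90 to 6.52 in high pigs and from 5.72 through 5.86 to 6.07 in low pigs, a difference of -0.04 ± 0.20. Low pigs lay inside the range of high pigs for FOXM1. The S phase cyclin CCNE2 (-0.12 ± 0.26), CCNB2 (0.06 ± 0.22) and CKS2 (-0.02 ± 0.30), a CDK binding protein, showed no difference beyond their SE.

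Mitosis genes split nearly evenly by sign, with 12 higher and 11 lower and a median of 0.01. PRC1, which bundles microtubules at the midzone of the spindle, ran from 5.98 through 6.40 to 7.13 in high pigs and from 4.76 through 6.08 to 6.93 in low pigs. Its difference was 0.39 ± 0.28, with the smallest unadjusted p of all members (0.196, limma adjusted p 0.999). Low 6 held the lowest PRC1 value, and without it the difference was 0.15. CENPE, a kinetochore motor, ran from 4.72 through 5.30 to 6.74 in high pigs and from 4.01 through 5.28 to 6.64 in low pigs, a difference of 0.33 ± 0.29. Medians of CENPE were level, and the 2 highest pigs were 1 of each group.

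Among the checkpoint genes, TTK, the kinase that starts spindle checkpoint signalling, ran from 4.83 through 5.94 to 6.45 in high pigs and from 5.62 through 6.17 to 6.57 in low pigs, a difference of -0.35 ± 0.26. BUB1B, which encodes the checkpoint protein BubR1, ran from 5.17 through 5.71 to 6.62 in high pigs and from 4.74 through 5.53 to 6.32 in low pigs, a difference of 0.28 ± 0.25. These 2 checkpoint genes leaned in opposite directions with overlapping groups. The remaining checkpoint members BUB1 (0.05 ± 0.32), MAD2L1 (0.02 ± 0.25), CDC20 (0.07 ± 0.31) and UBE2C (-0.19 ± 0.31), the last 2 of which act with the anaphase promoting complex, lay within 1 SE of 0.

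Of the mitotic kinases and their partners, AURKA ran from 5.41 through 6.54 to 7.48 in high pigs and from 6.27 through 6.81 to 7.21 in low pigs, a difference of -0.30 ± 0.33. High 1 held the lowest AURKA value, and without it the difference was -0.09. AURKB, the kinase of the chromosomal passenger complex, ran from 7.62 through 8.83 to 9.22 in high pigs and from 7.58 through 8.50 to 8.98 in low pigs, a difference of 0.16 ± 0.30. BIRC5, survivin of the same complex, differed by -0.08 ± 0.29 and PLK1 by -0.08 ± 0.28.

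MKI67, whose protein Ki-67 marks cycling cells, ran from 5.71 through 7.23 to 7.64 in high pigs and from 6.23 through 7.33 to 7.42 in low pigs, a difference of -0.09 ± 0.35. NCAPG, a condensin subunit, ran from 5.74 through 6.41 to 6.99 in high pigs and from 5.81 through 6.56 to 6.99 in low pigs, a difference of -0.13 ± 0.23. Both groups reached the same highest NCAPG value to 2 decimals. TOP2A, the topoisomerase that untangles chromosomes, differed by 0.03 ± 0.35, SMC2 by 0.06 ± 0.25 and SMC4 by -0.06 ± 0.29. The spindle and cytokinesis genes CENPF (0.13 ± 0.33), KIF11 (-0.13 ± 0.30), KIF23 (-0.05 ± 0.27), NUSAP1 (-0.02 ± 0.29), TPX2 (0.01 ± 0.31) and ANLN (0.05 ± 0.24) lay within 1 SE of 0.

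**Figure D2:**
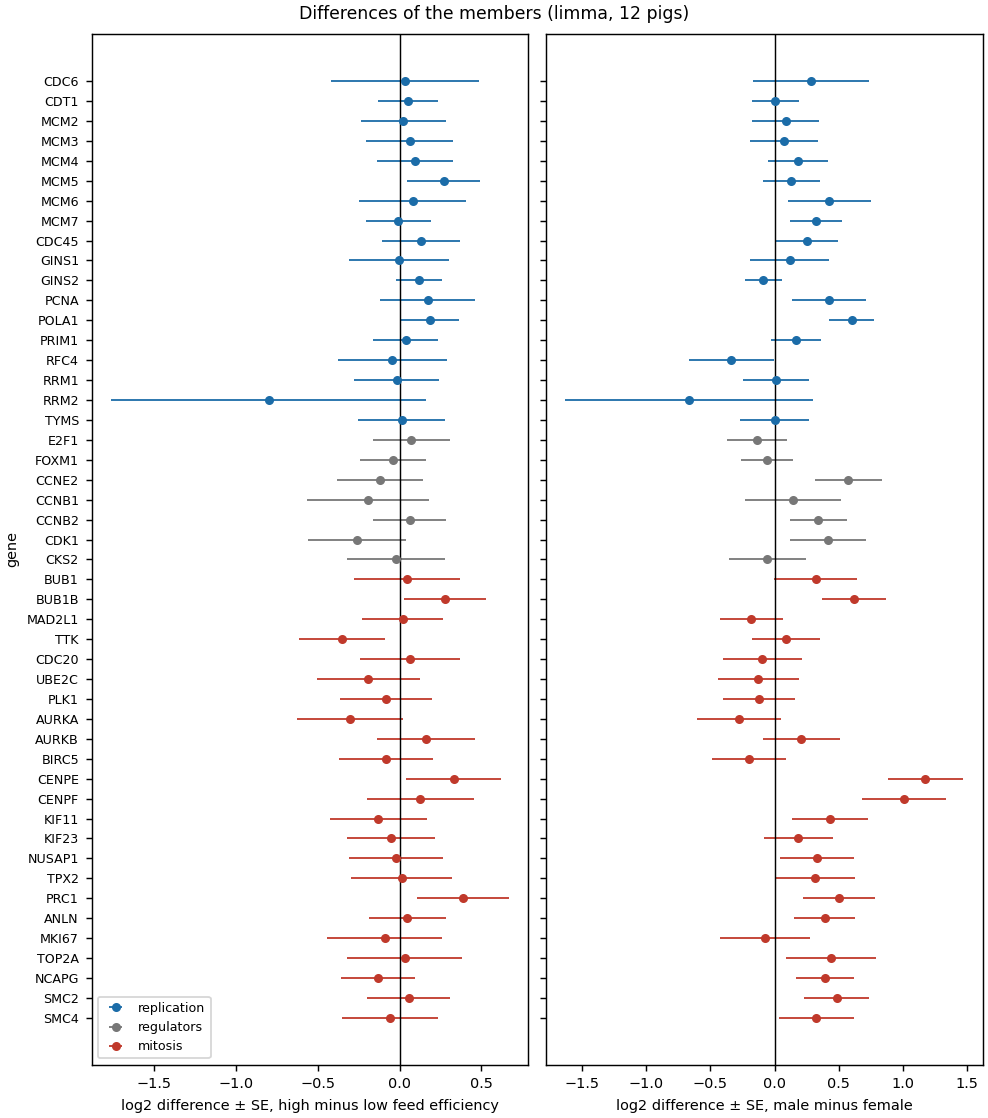
Points give the log2 difference of each member from the limma fit over 12 pigs, high minus low feed efficiency on the left and male minus female on the right, and bars give its SE. Left, points scatter on both sides of 0 from -0.80 (RRM2) to 0.39 (PRC1). Right, 35 of 48 lie above 0, with CENPE at 1.17 and CENPF at 1.01 farthest out.

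The sign count of the members moved with single pigs. The median difference, high minus low, was -0.14 without low 4 (8 members higher) and 0.19 without high 3 (44 higher). It was -0.18 without both high 1 and low 4 (6 higher), an alternative chosen after seeing the data. Among males alone the median was -0.08 and among females alone 0.10. No member was called in any of these fits.

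Further genes of the cycle gave the same count of calls. Of 33 measured further replication genes, 16 were higher and 17 lower in high pigs, and none had an unadjusted p under 0.05. Of 47 further mitosis genes, 24 were higher and 23 lower, and of 27 genes of G1 control and brakes on the cycle, 15 were higher and 12 lower, again with none under 0.05. The smallest p among these belonged to CDKN1A, which encodes the CDK inhibitor p21, with a difference of -0.60 ± 0.28 (unadjusted p 0.0541, limma adjusted p 0.999). It ran from 6.47 through 8.19 to 9.0 in high pigs and from 7.69 through 8.61 to 9.42 in low pigs.

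Between the sexes, no member passed an adjusted p under 0.05, where 0.0329% of all probe sets did. At an adjusted p under 0.1, 1 member was called, CENPE, against 1.74% of all probe sets. At an unadjusted p under 0.05 there were 5 members, all higher in males, or 10.4% of the 48, against 19.0% of all probe sets in either direction, 9.79% higher and 9.17% lower in males. No member was lower in males at that threshold. By sign, 35 members were higher and 13 lower in males, where 44.3% of all genes had a difference above 0. The median difference, male minus female, was 0.18 for the members and -0.04 for all genes.

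CENPE was the only member whose male and female values did not overlap, against 2.18% of all probe sets in either direction and 1.25% higher in males. It ran from 5.29 through 5.89 to 6.74 in males and from 4.01 through 4.87 to 5.28 in females, a difference of 1.17 ± 0.29 (limma adjusted p 0.0977). The chosen CENPE probe set had the lowest mean of all members, 5.39. The gene's second probe set differed by 0.58 ± 0.23, but it was dim, with a mean of 3.56 against a median of 2.60 for background probe sets. CENPF, a large protein of the kinetochore, ran from 5.13 through 6.0 to 6.81 in males and from 4.19 through 5.22 to 5.43 in females, a difference of 1.01 ± 0.33 (limma adjusted p 0.145). High 1 and low 2, both males, held the 2 highest values of both genes. Without both of these pigs, an alternative chosen after seeing the data, 2 members had an unadjusted p under 0.05, against 10.8% of all probe sets in that fit, and the median was 0.12.

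POLA1, which lies on the X chromosome in mammals, ran from 6.66 through 7.09 to 7.44 in males and from 6.11 through 6.51 to 6.85 in females, a difference of 0.60 ± 0.17 (limma adjusted p 0.121). The second POLA1 probe set differed by 0.38 ± 0.20 (limma unadjusted p 0.084). BUB1B ran from 5.29 through 5.99 to 6.62 in males and from 4.74 through 5.35 to 6.06 in females, a difference of 0.62 ± 0.25 (limma adjusted p 0.208). CCNE2 ran from 5.71 through 6.30 to 6.81 in males and from 5.08 through 5.96 to 6.29 in females, a difference of 0.57 ± 0.26 (limma adjusted p 0.261). Males reached above the highest female for all 3 of these genes, and the ranges overlapped below that.

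By role, at the chosen probe sets, the difference between the sexes was uneven in sign. All 8 spindle and cytokinesis genes were higher in males with a median of 0.41, also under quantile normalization (0.44) and median centring (0.37). All 8 licensing genes were higher in males with a median of 0.16, and 7 of 8 under either of these scalings. Of the 18 replication genes, 15 were higher and 3 lower in males, and under median centring 12 were higher and 6 lower. MCM6 ran from 8.05 through 8.93 to 9.27 in males and from 7.25 through 8.44 to 9.03 in females, a difference of 0.43 ± 0.33. MCM7 ran from 9.29 through 9.78 to 10.12 in males and from 8.83 through 9.41 to 9.94 in females, a difference of 0.32 ± 0.20. Its other probe sets gave 0.26 ± 0.27, 0.07 ± 0.29, -0.03 ± 0.28 and -0.14 ± 0.32. Those of MCM5 gave 0.17 ± 0.19 and -0.06 ± 0.26, where the chosen one gave 0.13 ± 0.22. The sign count of the licensing genes thus depends on the probe sets chosen. In contrast, 3 of the 4 mitotic kinases and partners were lower in males, among them AURKA at -0.28 ± 0.33 and BIRC5 at -0.20 ± 0.29. None of these 4 genes had an unadjusted p under 0.05.

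At the chosen probe sets, MKI67, PCNA and MCM2, widely used as markers of proliferation, had no unadjusted p under 0.05 between the sexes. MKI67 ran from 5.71 through 7.30 to 7.64 in males and from 6.36 through 7.24 to 7.42 in females, a difference of -0.07 ± 0.35. PCNA ran from 9.55 through 10.43 to 10.76 in males and from 8.85 through 9.87 to 10.38 in females, a difference of 0.42 ± 0.29. Male and female ranges overlapped for both genes. The second PCNA probe set differed by 0.67 ± 0.30 (limma unadjusted p 0.0454, limma adjusted p 0.254). With the range of identifiers as a term, the fit rests on the 6 males against the females high 4 and low 4. Under that term the difference, male minus female, was 1.06 for PCNA, 0.57 for MCM2 and 0.56 for MKI67, none with a limma adjusted p under 0.05. Without that term MCM2 differed by 0.09 ± 0.26, E2F1 by -0.14 ± 0.23, FOXM1 by -0.06 ± 0.20, RRM1 by 0.01 ± 0.26 and RRM2 by -0.67 ± 0.96. CDK1 differed by 0.42 ± 0.30, BUB1 by 0.32 ± 0.32, CCNB2 by 0.34 ± 0.22, NCAPG by 0.39 ± 0.23 and SMC2 by 0.48 ± 0.25.

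The range of identifiers moved the sex difference more than any other term. All 6 males lie in the range 301 to 310, whose 2 females, high 4 and low 4, had cell cycle scores of -0.50 and -0.76. The 4 females of the range 317 to 324 had scores of 0.38, -0.02, 0.38 and -0.07. Within the range 301 to 310 alone, the median member difference, male minus female, was 0.72 with 48 of 48 members higher in males, where 45.4% of all genes had a difference above 0. There 17 members had an unadjusted p under 0.05, against 15.3% of all probe sets. With the range as a term in the model the median was also 0.72, 48 were higher (45.4% of all genes), and 20 had an unadjusted p under 0.05, against 20.1% of all probe sets. The other range holds females alone, so this fit too sets the 6 males against high 4 and low 4. It is therefore not a second estimate of the sex difference. No member was called at an adjusted p under 0.05 in either fit. What the ranges stand for is not given in the sources used here, and its part in the result was not tested.

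Other gene lists were set beside the members in the sex comparison, and none of their genes passed an adjusted p under 0.05. Of the genes of G1 control, 5 of 27 (18.5%) had an unadjusted p under 0.05, against 19.0% of all probe sets. CDK6, a kinase of G1, ran from 6.44 through 6.97 to 7.37 in males and from 5.91 through 6.15 to 6.33 in females, a difference of 0.76 ± 0.16 (limma adjusted p 0.0913). CDKN1A ran from 6.47 through 7.76 to 8.71 in males and from 8.51 through 8.73 to 9.42 in females, a difference of -1.07 ± 0.28 (limma adjusted p 0.107). Among further replication genes 4 of 33 (12.1%) passed the unadjusted threshold, led by GMNN, the licensing inhibitor geminin, at 0.55 ± 0.20. Among further mitosis genes 2 of 47 (4.26%) did, the kinesin KIF14 (0.83 ± 0.25) and the kinetochore gene NUF2 (0.62 ± 0.25). Of the markers measured, 3 of 7 of plasma cells, 3 of 6 of macrophages and 3 of 5 of goblet cells were lower in males at an unadjusted p under 0.05, against 9.17% of all probe sets. Their mean centred log2 values ranged, for plasma cells, from -0.75 to 0.16 in males and from 0.09 to 0.31 in females. For macrophages the ranges were -0.70 to 0.30 in males and 0.001 to 0.39 in females, and for goblet cells -1.17 to 0.43 in males and 0.07 to 0.39 in females. The part of these cell types in the sex differences of the members was not tested.

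The feed efficiency difference did not differ between the sexes beyond the error of the fit. In the limma test of the interaction no member was called and 0% of all probe sets were, and no member had an unadjusted p under 0.05, against 2.76% of all probe sets. The median of the members' interaction was -0.17, with 12 above 0 and 36 below, where 45.8% of all genes lay above 0. It was 0.21 without high 3, 0.10 without low 4 and 0.14 with array weights, so its sign depended on single arrays.

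The members followed each other closely over the pigs. After the means of the 4 groups of feed efficiency and sex were taken out, the median Pearson r was 0.87 over pairs of replication genes, 0.85 over pairs of mitosis genes and 0.85 between a replication and a mitosis gene. Over pairs of all genes it was 0.00. Without taking the group means out, the member values were 0.79, 0.77 and 0.75 in that order, and 0.01 over pairs of all genes. Pairs share the same 12 arrays, so these values describe these arrays and carry no p. Whether the link between the classes is weaker than within them was not tested. The first component of the 48 members held 69.1% of their variance.

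Per pig, the mean centred value of the 18 replication genes and that of the 23 mitosis genes had r = 0.93 and rho = 0.88 (n = 12), and r = 0.89 without low 4 and high 2. Within groups r was 0.90 in high pigs and 0.97 in low pigs, and 0.95 in males and in females, and it was 0.93 within the identifiers 301 to 310 (n = 8). The difference of the 2 scores, replication minus mitosis, averaged 0.01 ± 0.23 in high pigs and -0.01 ± 0.13 in low pigs (SD, n = 6 each). It lay farthest from 0 in high 1 (-0.35) and high 4 (0.31). In high 1 mitosis genes stood at 0.34 and replication genes at -0.01, and in high 4 mitosis genes stood at -0.61 and replication genes at -0.30. High 1 is the array that stands apart from the rest, and over all pigs the difference of the scores had r = 0.62 with the first component of all probe sets. Without high 1 and low 2 that r was 0.03.

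Single genes were also set against MKI67 over the 12 pigs. The permutation test shuffled values over all 12 pigs without regard to feed efficiency, sex or the range of identifiers. Members were chosen with earlier results of these data known, so its p values are not independent support. E2F1 had r = 0.90 and rho = 0.90 (permutation test with 100000 resamples, adjusted p 0.0001 and 0.0008 over 5 relations). MCM2 had r = 0.89 and rho = 0.81 (adjusted permutation p 0.00048 and 0.00525). PCNA had r = 0.79 and rho = 0.69 (adjusted permutation p 0.00312 and 0.02), and FOXM1 had r = 0.77 and rho = 0.74 (adjusted permutation p 0.00267 and 0.014). CDK1 had r = 0.46 and rho = 0.32, which did not pass (adjusted permutation p 0.12 and 0.31). That result is for the chosen CDK1 probe set, which had r = 0.53 with the other members, against 0.94 for another probe set. Without high 3 and low 3, the pigs farthest from the median of MKI67, r was 0.80 for E2F1, 0.86 for MCM2, 0.88 for PCNA, 0.59 for FOXM1 and 0.74 for CDK1. Within high pigs r with MKI67 was 0.91 for E2F1, 0.94 for MCM2, 0.90 for PCNA and 0.94 for FOXM1. Within low pigs it was 0.92, 0.84, 0.77 and 0.24 for the same genes in that order. Within the identifiers 301 to 310 (n = 8) it was 0.89 for E2F1, 0.89 for MCM2, 0.84 for PCNA, 0.78 for FOXM1 and 0.41 for CDK1, and the 4 pigs of the other range are too few for a value.

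**Figure D3:**
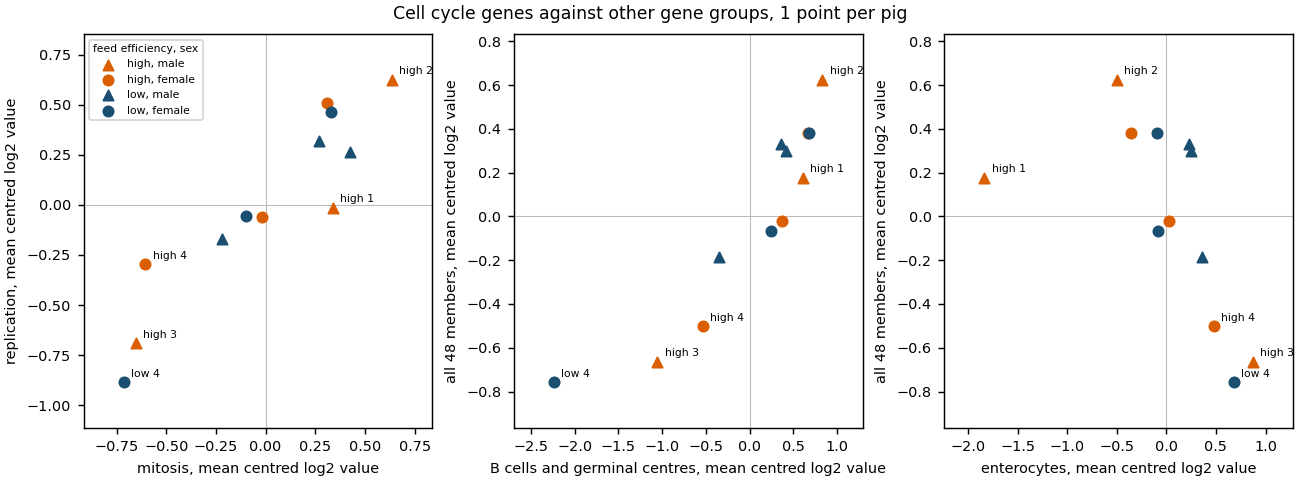
Each point is 1 pig, and axes give mean centred log2 values over the genes of a list. Left, replication genes against mitosis genes; middle, all 48 members against B cell and germinal centre genes; right, all 48 members against enterocyte genes. Low 4, high 3 and high 4 lie lowest on the cell cycle axis in each panel and lowest on the B cell axis, and high 1 lies far left on the enterocyte axis at -1.84.

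How closely each member followed the mean of the other 47 differed between genes. The median r was 0.86, and 19 members lay above 0.9. MCM3, MCM4 and TPX2, a spindle assembly factor, were nearest to the others at 0.98. Below 0.7 lay 8 members: PRC1 at 0.16, CDT1 at 0.26, CDK1 at 0.53, AURKA at 0.58, CENPE at 0.61, RFC4 at 0.64, CENPF at 0.68 and POLA1 at 0.70 after rounding. PRC1, farthest from the pattern, peaked in high 1 and was lowest in low 6. By role the median ran from 0.81 for spindle and cytokinesis genes to 0.94 for licensing genes.

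Part of this spread was between probe sets of the same gene. Another CDK1 probe set had r = 0.94 with the other members, where the chosen one had 0.53. Further PRC1 probe sets had r = 0.72, 0.53 and -0.15. TPX2 had 2 probe sets at 0.98 and a dimmer one at -0.48. Of the 22 members with several probe sets kept, all probe sets had 1 sign for feed efficiency in 8 and for sex in 12. The array values of such genes, and with them the sign of small differences, depend on which probe set is read.

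Members differed in how closely they followed the first component of all probe sets, with r under 0 for 43 of 48. The cell cycle score had r = -0.48 with it, and -0.56 without high 1 and low 2. These 2 pigs lay lowest on it, at -108 and -44.8, and held the highest CENPE and CENPF values. For single members no r without them was taken. CENPE and CENPF had r = -0.92 with the first component of all probe sets, POLA1 -0.90 and SMC2 -0.87, whereas AURKA had 0.28, RFC4 0.26 and CDT1 0.31. The genes with the strongest difference between males and females were among those that followed the first component. Males ranged from -108 to 14.2 on it and females from 6.89 to 61.2.

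**Figure D4:**
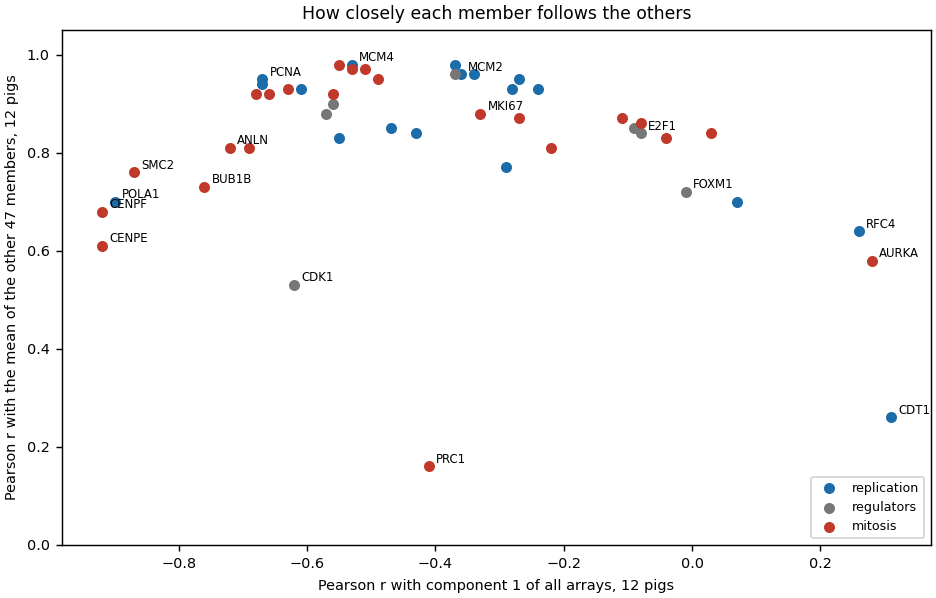
Each point is 1 member, with its Pearson r over 12 pigs with the first component of all probe sets on the horizontal axis and with the mean of the other 47 members on the vertical axis. Most members lie above 0.7 on the vertical axis, PRC1 and CDT1 lie far below, and CENPE, CENPF, POLA1 and SMC2 lie at the left edge.

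Outside the members, the genes most like their mean over the 12 pigs were taken from 11776 other genes with a proper symbol. They were DNMT1, the methyltransferase that copies DNA methylation at the fork, CCNB3, a B type cyclin, ESCO2, which acetylates cohesin in S phase, EXO1, an exonuclease of mismatch repair, DCK, deoxycytidine kinase, and CIT, the citron kinase of cytokinesis, each with r = 0.98. FAM69A, the transcription factor FOXO1, the chaperonin subunit CCT3 and the nuclear export factor CSE1L followed at 0.97. Genes with r of at least 0.9 numbered 137, or 1.16%. DNMT1 ran from 5.63 through 6.79 to 7.43 in high pigs and from 5.54 through 6.79 to 7.28 in low pigs, with low 4 lowest and high 2 highest as in the members. The least like genes were DQX1 (-0.97), the Notch inhibitor NUMB (-0.95), and FASLG, DOCK6 and the nucleoside transporter SLC28A1 (each -0.94).

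Of the gene lists, further mitosis genes had r = 0.99 (rho 0.97) and further replication genes r = 0.98 (rho 0.96) with the cell cycle score. Genes of G1 control had r = 0.91 (rho 0.85), and r = 0.78 without low 4 and high 3. Of those 27 genes, 6 had r under 0 and 1 had r of at least 0.9, and the median r over pairs within that list was 0.18 with group means taken out. B cell and germinal centre genes had r = 0.92 and rho = 0.94 with it, and r = 0.91 without low 4 and high 3. Within high pigs that r was 0.96, within low pigs 0.95, within males 0.97, within females 0.92 and within the identifiers 301 to 310 (n = 8) 0.92. All 13 B cell genes measured had r above 0, from 0.78 for EBF1 to 0.92 for BCL6, the master factor of germinal centre B cells, and for CD22. The B cell score ranged from -1.06 to 0.83 in high pigs and from -2.23 to 0.68 in low pigs. Low 4 was lowest for both scores, with PAX5, a B cell transcription factor, at 5.08 against a median of 10.5 in low pigs. RGS13 was the dimmest of the 13 genes at 2.12 to 4.13 over all pigs. Its lowest value, in low 4, lay under the median of background probe sets (2.60). These are correlations of list means over the same arrays, given without p, and the part of B cells in the variation of the cell cycle genes was not tested.

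Epithelial lists did not follow the members upward. Crypt stem cell genes had r = -0.52 (rho -0.58) with the cell cycle score, with 9 of 11 below 0. LGR5, the marker of crypt base stem cells, had r = 0.07, and CD44 had 0.50. By group, r for the crypt list was -0.20 in males, -0.95 in females, -0.40 in high pigs and -0.94 in low pigs. Its genes moved together only weakly, with a median r of 0.18 over pairs with group means taken out. Enterocyte genes had r = -0.59 (rho -0.80), with 16 of 16 below 0, and r = -0.82 without high 1 and high 3. Smooth muscle genes had r = -0.68 (rho -0.70), with 9 of 9 below 0, and T cell genes r = -0.62 (rho -0.66). Over all pigs, plasma cell genes (0.23), macrophage genes (0.32) and goblet cell genes (-0.31) were more weakly related. By group, r for plasma cell genes was 0.53 in males, 0.97 in females, 0.43 in high pigs and -0.14 in low pigs. For macrophage genes it was 0.51, 0.86, 0.61 and 0.00 in that order, and for goblet cell genes -0.26, -0.38, -0.17 and -0.50. Plasma cell genes differed among themselves, with 3 of 7 below 0, from SDC1 at -0.84 to IRF4 at 0.81.

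Between the feed efficiency groups, no gene of the cell type lists passed an adjusted p under 0.05, and 4 had an unadjusted p under 0.05, against 3.17% of all probe sets. Measured genes numbered 13 for B cells, 11 for crypt, 16 for enterocytes, 8 for T cells and 7 for plasma cells. For macrophages there were 6, for goblet cells 5 and for smooth muscle 9. OLFM4, a crypt gene, ran from 8.98 through 10.47 to 11.10 in high pigs and from 10.80 through 11.15 to 11.69 in low pigs, a difference of -0.80 ± 0.26 (unadjusted p 0.0103, limma adjusted p 0.999). APOA4, an apolipoprotein of enterocytes, differed by -0.98 ± 0.37 (unadjusted p 0.0225). MRC1, the mannose receptor of macrophages, differed by -0.57 ± 0.19 (unadjusted p 0.0109), and AGR2, a goblet cell gene, by -0.35 ± 0.15 (unadjusted p 0.0384), all with a limma adjusted p of 0.999. Of 13 B cell genes, 12 were higher in high pigs with a median of 0.28, and none had an unadjusted p under 0.05. Without low 4, 3 of the 13 were higher and 10 lower, with a median of -0.18.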

How the data were processed

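The deposited table holds log2 signals of 47845 probe sets on 12 arrays, made by the authors. GCOS 1.1.1 appears in the submitters' processing notes. Background correction, probe summary and normalization were not stated in any source used here. The log2 scale was read from the values (0.30 to 14.24). No normalization was added.

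The 123 control probe sets were left out, as were the 30% with the lowest mean (under 2.67), which left 33405. Platform annotation gave 26426 probe sets 1 symbol, several to 0 and none to 21419, and 446 symbols were updated through RefSeq synonyms. Antigenomic background probe sets (69) had a median of 2.60 and a 90th percentile of 7.54, so a member's value holds some background. Means of the chosen member probe sets ran from 5.39 to 10.01. Most of them lay under that percentile, MKI67 (6.97) among them. The number of arrays limits the precision.

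All probe sets kept were fitted with limma 3.58.1 (lmFit, eBayes) in R 4.3.3, with feed efficiency and sex as terms. The interaction was a contrast of 4 groups (feed efficiency by sex). Benjamini-Hochberg adjustment ran over all probe sets, and the threshold was 0.05. The fit was tested on simulated data. Scores are means of log2 values centred on the 12 arrays. No promoter or protein sequence was used here.

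Named genes were, per role and comparison, the 2 members of smallest p, with MKI67, PCNA, MCM2, CDK1, E2F1, FOXM1, the members nearest to and farthest from the shared pattern, the 10 most and 5 least like other genes, and up to 3 genes of each further list. Other genes named were chosen after their values were seen. The members, the lists and the tests were chosen with earlier results of these data known. Alternatives were other filters, quantile normalization, median centring, trended variance, array weights, the mean over probe sets, the range of identifiers and pigs left out.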

Additional observations from a re-analysis of the deposited data

Results flagged for a closer look

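In 9 of 126 groups of 6 pigs tested, the highest or lowest pig lay apart from the others by more than the critical gap of Dixon's test. Chance gives such a gap in about 1 in 20 groups. CDC6 in low pigs was 5.22 in low 4, with the next pig at 6.87. GINS2 in high pigs was 5.20 in high 3, with the next at 5.66, and CDK1 in high pigs was 5.23 in high 4, with the next at 6.72.

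The mean centred value of B cell and germinal centre genes was -2.23 in low 4, with the next low pig at -0.34. Crypt stem cell genes stood at 0.41 in the same pig, with the next at 0.10. In low 2, T cell genes stood at -0.63 (next -0.02), plasma cell genes at -0.33 (next 0.09) and goblet cell genes at -0.90 (next 0.07). Goblet cell genes in high 1 stood at -1.17, with the next high pig at -0.18.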

How the results depend on the processing

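No member was called in any alternative run for feed efficiency, sex or their interaction. The median sex difference was 0.72, against 0.18, with the range of identifiers as a term and in the range 301 to 310 alone. Both of these fits rest on the 6 males against 2 females, high 4 and low 4. With pigs left out in turn the median of the members ran from -0.14 to 0.19 for feed efficiency and from 0.04 to 0.36 for sex, and the median r from 0.84 to 0.91 within replication, from 0.80 to 0.88 within mitosis and from 0.81 to 0.88 between them. Of the named members, 9 of 20 kept their sign in every alternative for feed efficiency and 13 of 21 for sex. For feed efficiency the sign turned for RRM1 under quantile normalization (0.011) and for MKI67 as the mean over probe sets (0.004). For sex it turned for RRM1 under median centring (-0.031) and, with the range of identifiers as a term, for RRM2 (0.85), E2F1 (0.23), FOXM1 (0.10), AURKA (0.28), BIRC5 (0.46) and MKI67 (0.56). The cause was not tested. With pigs left out in turn, the feed efficiency difference spanned 0 for MCM2 (-0.15 to 0.20), MCM4 (-0.02 to 0.26), PCNA (-0.02 to 0.34), RRM1 (-0.17 to 0.16), E2F1 (-0.08 to 0.23), FOXM1 (-0.20 to 0.12), CCNB1 (-0.38 to 0.11), CDK1 (-0.41 to 0.027), AURKB (-0.012 to 0.40), MKI67 (-0.26 to 0.17) and NCAPG (-0.24 to 0.014). The sex difference did so for MCM2 (-0.087 to 0.27), RRM1 (-0.14 to 0.19), E2F1 (-0.29 to 0.017), FOXM1 (-0.21 to 0.10) and MKI67 (-0.24 to 0.19). Signal over background limits the members, most of which had a mean under the 90th percentile of background probe sets. No paired analysis was possible because pigs were numbered in accession order and each pig belongs to 1 group.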
